A study of Mus musculus with 9 samples.

Results

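The 10 genes described here are the classical MHC class II chains (H2-Aa, H2-Ab1, H2-Eb1), the invariant chain (Cd74), the peptide-loading chains (H2-DMa, H2-DMb1, H2-DMb2), the modulator chains (H2-Oa, H2-Ob) and the class II transactivator Ciita. They were taken by name, with every probe that the array files assign to them, and are 10 of 12029 genes tested. All 10 were measured well above background on all 9 arrays. The study asked what the C-terminal domain of EBF1, a transcription factor of the B lineage, contributes when the protein replaces endogenous EBF1.

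The cells of every group were C57Bl/6 pro-B cells transformed with Abelson murine leukaemia virus (A-MuLV), genotype Ebf1fl/fl;RERTCre, in which 2 µM 4-hydroxy-tamoxifen (4-OHT) activates Cre and deletes the floxed Ebf1 alleles. Mock cells were given no EBF1 and were collected 4 days after 4-OHT, before death of the cells was seen. EBF1wt and EBF1ΔC cells received a pmys retrovirus that carries wild-type EBF1 or EBF1 lacking the C terminus, linked to GFP by an IRES, and were given 4-OHT 24 h later. These were sorted for GFP 5 days after 4-OHT and used after more than 2 further weeks. The groups therefore differ in virus, sorting and time in culture as well as in EBF1. The source label of the third EBF1wt sample leaves out 4-OHT, while its description includes it. Each group has 3 arrays. No label says whether these came from separate cultures, so p-values measure the spread between these samples, which may be technical.

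The 75th percentile of the arrays was 384 to 507.7 intensity units. The share of probes well above background was 54.3% to 56.9% on the Mock arrays, above every EBF1 array. It was 50.8% to 51.2% on the EBF1wt arrays and 51.4% to 53.4% on the EBF1ΔC arrays. The Mock arrays lay on slides 1 and 2 and were scanned on 1 day, and the EBF1 arrays lay on slides 3 to 6 and were scanned on another. Batch and group cannot be told apart in the comparisons with Mock. Slides 4 and 5 each hold 1 EBF1wt and 1 EBF1ΔC array. The brightest Ebf1 probe read 1.73, 1.47 and 1.17 on the Mock arrays, 3.17, 2.87 and 3.16 on the EBF1wt arrays and 3.81, 3.74 and 3.85 on the EBF1ΔC arrays (log2 signal minus the 75th percentile of the array, the scale used throughout). The mean of all kept Ebf1 probes went the other way, lower than Mock by 1.0 in EBF1wt and by 0.76 in EBF1ΔC cells on the log2 scale. Whether a probe lies in the deleted part, or in the retroviral insert, is not given in the sources used here, so these values check no label. All 11 pro-B markers, among them Cd79a and Vpreb1, were well above background on all arrays of the 3 groups.

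Class II molecules are pairs of an alpha and a beta chain that show peptides from endosomes to CD4 T cells. The invariant chain guides them from the endoplasmic reticulum to the endosome and fills the groove on the way; H2-DM then removes the last invariant chain fragment and loads peptide, and H2-DO restrains H2-DM, mainly in B cells. The genes share an upstream element, the X and Y boxes, bound by the RFX complex, CREB and NF-Y. CIITA binds no DNA itself: it docks on these factors and recruits coactivators, and its own level sets class II expression in most cells. In B cells Ciita is read from a promoter of its own, distinct from those used in dendritic cells and after interferon gamma.

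Promoter sequences (250 bases before to 50 after the gene start, RefSeq, build GRCm38.p6) were matched for 7 of the 10 genes. Windows of 61 bases that end just past the Y box letters are shown for 6 of them. The Y box is part of the element through which CIITA acts, and the windows allow the genes to be compared by eye. The windows are written 5′ to 3′ on the strand of the gene. Capitals mark the Y box letters GATTGG, an X box core (AAC, any 2 bases, then ATGATG) and, where present, the CREB-type site TGACGTCA.

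H2-Aa (chr17:34287857-34287917, minus strand): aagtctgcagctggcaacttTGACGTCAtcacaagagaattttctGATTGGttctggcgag

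H2-Eb1 (chr17:34305762-34305822, plus strand): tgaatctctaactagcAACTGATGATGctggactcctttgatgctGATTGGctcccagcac

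H2-DMb1 (chr17:34153084-34153144, plus strand): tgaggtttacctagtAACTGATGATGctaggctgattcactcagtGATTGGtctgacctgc

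H2-DMb2 (chr17:34145113-34145173, plus strand): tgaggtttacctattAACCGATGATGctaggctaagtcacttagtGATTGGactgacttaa

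H2-Oa (chr17:34092290-34092350, plus strand): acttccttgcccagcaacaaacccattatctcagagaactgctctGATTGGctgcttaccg

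H2-Ob (chr17:34238802-34238862, plus strand): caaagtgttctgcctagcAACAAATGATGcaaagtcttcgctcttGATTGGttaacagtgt

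In these windows the Y box letters begin between 44 bases (H2-Oa) and 91 bases (H2-DMb2) before the gene start. The X box letters, which were written down after these promoters had been read, stand in 4 of the 7 (H2-Eb1, H2-DMb1, H2-DMb2 and H2-Ob), with 16 to 19 bases between them and the Y box. Both strands of all 32851 promoters of the table were searched. GATTGG alone is common, in 16.1% of promoters, and the X core is rare, in 0.137%. The X core followed by the Y box within 5 to 40 bases on one strand was found in 4 promoters of the table, those of the 4 genes just named. H2-Aa has TGACGTCA (in 1.79% of promoters), 17 bases before its Y box. Of the letters searched for, H2-Oa holds only GATTGG. The EBF1 site (TCCC, any 2 bases, then GGGA), present in 0.904% of promoters, was in none of the 7, which says only that these letters are not in these windows. The 2 entries of H2-DMa hold no X core, and 1 of them holds GATTGG.

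All 10 genes were lower in EBF1wt than in Mock cells. They were called at a limma p-value, adjusted over the 12029 genes, under 0.05 together with a change of at least 2-fold; 12.8% of all genes were called lower by this rule. The median difference was -4.21 on the log2 scale against 0.12 for all genes. All 10 were also called lower in EBF1ΔC than in Mock cells, where 11.8% of genes were called lower, with a median of -3.50 against 0.10. Both comparisons use the same Mock arrays. Between the EBF1 groups, 3 of the 10 (H2-Aa, H2-Eb1 and Ciita) were called higher in EBF1ΔC, against 1.4% of all genes, and none lower (1.33% of genes); the median was 0.69 against -0.01. Genes called higher than Mock made up 6.62% in EBF1wt and 6.26% in EBF1ΔC, and none of the 10 was among them. By the adjusted p alone, 39.5% of genes were higher and 27% lower in EBF1wt, 37.5% and 26.7% in EBF1ΔC against Mock, and 4.12% and 4.95% in EBF1ΔC against EBF1wt. In bulk RNA such as this, fewer cells with a transcript and less transcript per cell cannot be told apart.

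**Figure D1:**
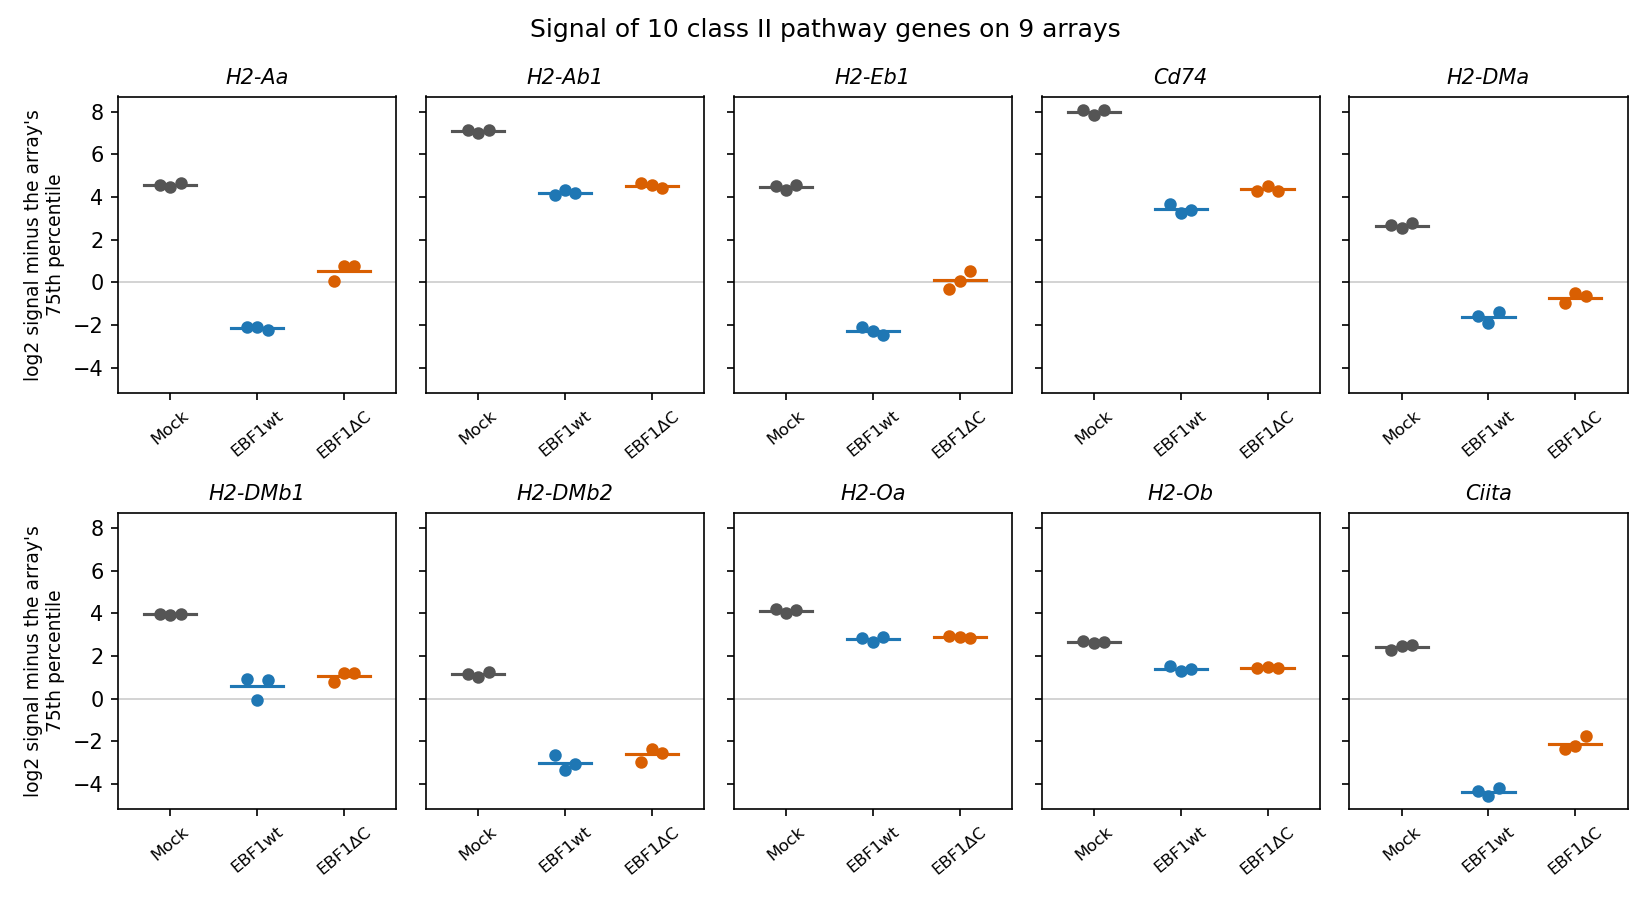
Points give the log2 signal of each gene on each array, minus the 75th percentile of that array, and bars the mean of 3 arrays (Mock grey, EBF1wt blue, EBF1ΔC orange). All 10 genes are highest on the Mock arrays, and H2-Aa, H2-Eb1 and Ciita show the widest step from EBF1wt to EBF1ΔC; levels of different genes come from different probes and are not comparable.

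The classical chains came first. H2-Aa, the alpha chain of the I-A molecule (probe at chr17:34421285-34421344, mm9), read 4.57, 4.49 and 4.66 on the Mock arrays, -2.07, -2.10 and -2.24 on the EBF1wt arrays and 0.09, 0.75 and 0.78 on the EBF1ΔC arrays. The 3 groups did not overlap, and EBF1ΔC lay between the others. H2-Aa was 105-fold lower in EBF1wt than in Mock (log2 -6.72, SE 0.17, adjusted p = 4.7e-08 in limma) and 16.4-fold lower in EBF1ΔC (log2 -4.04, SE 0.17, adjusted p = 7.15e-07). It was 6.4-fold higher in EBF1ΔC than in EBF1wt (log2 2.68, 95% CI 2.28 to 3.07, adjusted p = 0.000113). On the slides that carried both groups the difference was 2.88 and 2.32. With a background correction that adds an offset of 50 units, followed by quantile normalization and called the offset correction here, the differences from Mock were -5.79 and -3.92, both still called.

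H2-Eb1, the beta chain of the I-E molecule, gave differences close to those of H2-Aa. It read 4.51, 4.32 and 4.55 in Mock, -2.09, -2.27 and -2.44 in EBF1wt and -0.30, 0.06 and 0.55 in EBF1ΔC cells, again with no overlap. The signal left was 0.943% of the Mock level in EBF1wt and 4.87% in EBF1ΔC cells. EBF1ΔC exceeded EBF1wt by 2.37 (log2, SE 0.20, adjusted p = 0.000418 in limma), and by 2.82 and 2.14 within the shared slides. After the offset correction the differences from Mock were -5.73 and -4.21, both still called. The record behind the H2-Eb1 probe describes an I-A beta mRNA, although the files name the gene H2-Eb1 and place the probe at chr17:34452050-34452511 (mm9), so its target is less certain than that of the other probes. H2-Ea, the alpha chain that pairs with it and is not expressed in the C57BL/6 strain, was not well above background in any group and was not tested.

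H2-Ab1, the beta chain that pairs with H2-Aa, fell by a smaller amount. Its brightest probe (chr17:34406059-34406118, mm9) read 7.14, 7.0 and 7.12 in Mock, 4.07, 4.31 and 4.21 in EBF1wt and 4.63, 4.58 and 4.40 in EBF1ΔC cells. EBF1wt cells kept 13.5% of the Mock signal and EBF1ΔC cells 17.1%, falls of 7.42-fold and 5.85-fold (log2 -2.89 and -2.55, SE 0.09 each, adjusted p = 1.54e-07 and 3.99e-07 in limma). The groups with EBF1 did not overlap, yet their difference of 0.34 (95% CI 0.13 to 0.56) missed the threshold at an adjusted p of 0.0597 in limma. In the fit over all probes the adjusted p of this probe was 0.0876, while the other 3 H2-Ab1 probes passed the p-value (0.0258, 0.0343 and 0.00971) and stayed short of 2-fold.

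H2-Ab1 had more probes than any other of the 10 genes. Its 4 probes gave differences between -3.30 and -2.89 for EBF1wt against Mock and between 0.34 and 0.51 for EBF1ΔC against EBF1wt. Probe A_52_P570717 was built on another record than probe A_51_P215242, and the pair overlap by 31 bases, of which 29 are identical. The stretch below, bases 1 to 30 of the second probe named and 30 to 59 of the first, shows the differing bases in capitals; it is printed because sequence differences between alleles bear on how a probe reads this polymorphic gene.

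A_51_P215242: ttcaTgggcgagtgctactTcaccaacggg

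A_52_P570717: ttcaAgggcgagtgctactAcaccaacggg

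The mismatched pair gave like answers: -2.91 and -3.30 for EBF1wt against Mock, -2.47 and -2.79 for EBF1ΔC against Mock, and 0.44 and 0.51 between the EBF1 groups, all on the log2 scale.

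The alpha and beta chains of one molecule were then compared within arrays. Within each array the H2-Aa signal minus the H2-Ab1 signal was -2.56, -2.51 and -2.46 in Mock, -6.15, -6.41 and -6.44 in EBF1wt and -4.55, -3.83 and -3.62 in EBF1ΔC cells. The size of this value depends on the probes. Its change between groups does not rest on scaling, but its size does rest on the background correction. Its mean changed from Mock by -3.82 in EBF1wt and by -1.49 in EBF1ΔC cells, and the groups did not overlap. Each of the 3 group contrasts had an exact two-sided permutation p of 0.1, the smallest that 3 against 3 arrays allow, in a family of 9 such tests. For H2-DMa against H2-DMb1, the change was -0.90 in EBF1wt (exact permutation p = 0.1), -0.49 in EBF1ΔC (0.1) and 0.41 between the EBF1 groups (0.2). For H2-Oa against H2-Ob, the changes were -0.09, -0.01 and 0.08, with exact permutation p-values of 0.2, 0.8 and 0.3.

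**Figure D2:**
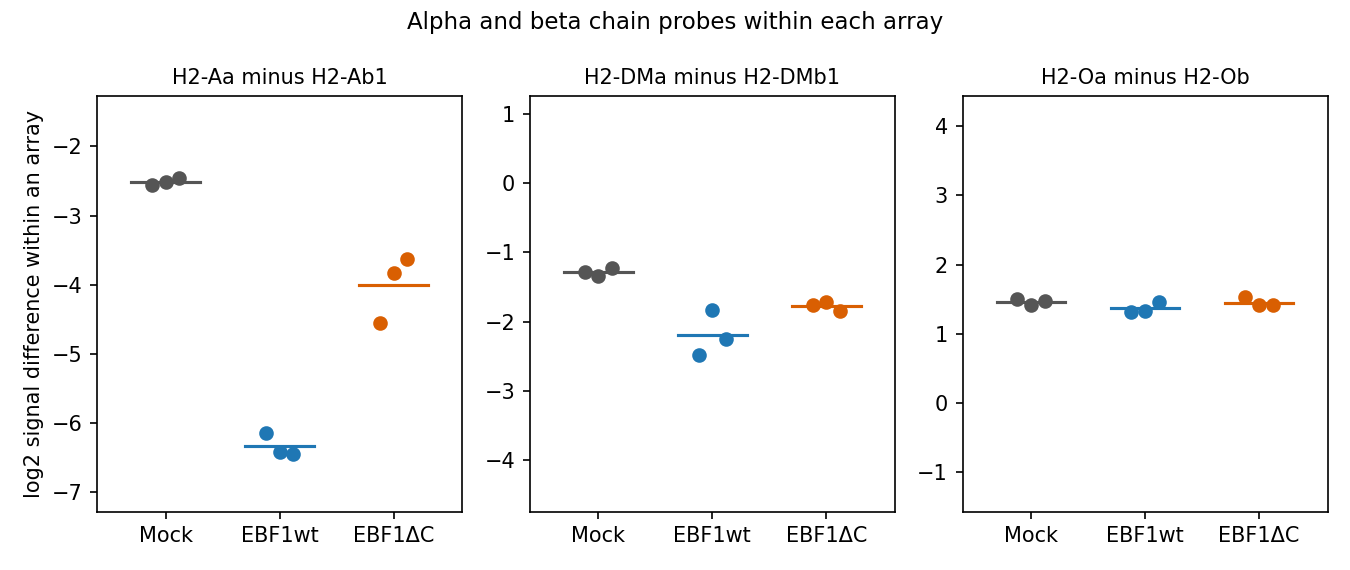
Each point is the log2 signal of the alpha chain probe minus that of the beta chain probe on one array, bars are group means, and each panel spans 6 log2 units. H2-Aa minus H2-Ab1 separates the 3 groups, H2-DMa minus H2-DMb1 separates Mock from the groups with EBF1, and H2-Oa minus H2-Ob overlaps between all groups. The values are those without the offset correction.

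Cd74, the invariant chain (chromosome 18), read 8.07, 7.84 and 8.05 in Mock, 3.66, 3.26 and 3.41 in EBF1wt and 4.27, 4.5 and 4.28 in EBF1ΔC cells. The groups did not overlap. Cd74 fell 23.3-fold in EBF1wt (log2 -4.54, SE 0.12, adjusted p = 5.99e-08 in limma) and 12.4-fold in EBF1ΔC cells (log2 -3.63, SE 0.12, adjusted p = 2.58e-07). Its excess of 0.91 in EBF1ΔC over EBF1wt (adjusted p = 0.00404) passed the p-value but stayed short of 2-fold. Without the first EBF1wt array the excess was 1.02 and was called. Over all alternatives it ran from 0.75 to 1.02, with an adjusted p in limma of up to 0.0635.

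H2-DMa, the alpha chain of H2-DM, read 2.69, 2.55 and 2.76 in Mock, -1.55, -1.90 and -1.36 in EBF1wt and -0.98, -0.51 and -0.64 in EBF1ΔC cells. It was 19.3-fold lower in EBF1wt and 10.4-fold lower in EBF1ΔC cells (adjusted p = 3.59e-07 and 1.4e-06 in limma), and 0.90 higher in EBF1ΔC than in EBF1wt on the log2 scale (SE 0.16, adjusted p = 0.014), without overlap and short of 2-fold. That excess was 1.26 on the one shared slide and 0.38 on the other, and it was called at 1.02 without the third EBF1wt array and at 1.03 without the first EBF1ΔC array. After the offset correction it was 0.61, and in the authors' deposited values 0.62, both past the p-value and short of 2-fold. Over all alternatives its adjusted p in limma reached 0.199. The differences from Mock after the offset correction were -3.71 and -3.10, both still called.

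H2-DMb1 and H2-DMb2 are near-copies that encode the beta chain, and a probe of one may read some of the other. H2-DMb1 read 3.98, 3.90 and 3.99 in Mock, 0.93, -0.07 and 0.89 in EBF1wt and 0.78, 1.22 and 1.20 in EBF1ΔC cells. The second EBF1wt array stood below the other two, and the EBF1 groups overlapped. H2-DMb1 fell by 3.37 in EBF1wt and 2.89 in EBF1ΔC cells on the log2 scale (SE 0.25, adjusted p = 1.31e-05 and 3.27e-05 in limma). H2-DMb2 read 1.14, 1.03 and 1.24 in Mock, between -3.33 and -2.65 in EBF1wt and between -2.98 and -2.33 in EBF1ΔC cells, and fell by 4.16 and 3.74, or by 2.79 and 2.68 after the offset correction. Between the EBF1 groups neither passed: the difference was 0.48 (95% CI -0.10 to 1.06, adjusted p = 0.279) for H2-DMb1 and 0.41 (-0.05 to 0.87, adjusted p = 0.251) for H2-DMb2. For H2-DMb1 it was 1.28 on one shared slide and -0.11 on the other, and 0.16 without the second EBF1wt array.

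The H2-DO chains had the smallest differences of the 10. H2-Oa read 4.21, 4.00 and 4.14 in Mock, 2.83, 2.63 and 2.87 in EBF1wt and 2.96, 2.87 and 2.86 in EBF1ΔC cells. H2-Ob read 2.70, 2.59 and 2.67 in Mock, 1.52, 1.30 and 1.41 in EBF1wt and 1.42, 1.46 and 1.45 in EBF1ΔC cells. Both were apart from Mock on every array and overlapped between the EBF1 groups. EBF1wt cells kept 39.5% of the Mock signal of H2-Oa and 42.2% of that of H2-Ob, and EBF1ΔC cells 43% and 43.4%. The falls in EBF1wt were 1.34 and 1.24 on the log2 scale (adjusted p = 7.32e-06 and 4.64e-06 in limma) and those in EBF1ΔC 1.22 and 1.21 (adjusted p = 1.35e-05 and 6.14e-06). With each array scaled to its median, which put the median difference of all genes from Mock at 0.82 and 0.65 in place of 0.12 and 0.10, the falls were 0.63 and 0.54 in EBF1wt and 0.67 and 0.66 in EBF1ΔC cells, still lower but short of 2-fold. Between the EBF1 groups the intervals of the difference ran from -0.08 to 0.33 for H2-Oa and from -0.14 to 0.21 for H2-Ob. A further H2-Ob probe stayed at background in all 3 groups.

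Ciita, the transactivator (probe at chr16:10526303-10526362, mm9), read 2.30, 2.45 and 2.51 in Mock, -4.33, -4.55 and -4.17 in EBF1wt and -2.36, -2.21 and -1.75 in EBF1ΔC cells, with no overlap between groups. Ciita was 109-fold lower in EBF1wt (log2 -6.77, SE 0.16, adjusted p = 2.96e-08 in limma) and 23-fold lower in EBF1ΔC cells (log2 -4.52, SE 0.16, adjusted p = 3.72e-07). EBF1ΔC cells exceeded EBF1wt cells by 2.24 (95% CI 1.87 to 2.62, adjusted p = 0.000226), and by 2.80 and 1.81 within the shared slides. In EBF1wt cells its signal was only 20.2 to 28.3 intensity units. After the offset correction the differences from Mock were -4.66 in EBF1wt and -3.83 in EBF1ΔC cells, both called, so the size of the fall depends on the correction. The excess in EBF1ΔC over EBF1wt was then 0.83, and in the authors' deposited values 0.75, both past the p-value and short of 2-fold. One probe does not tell the Ciita promoters apart.

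**Figure D3:**
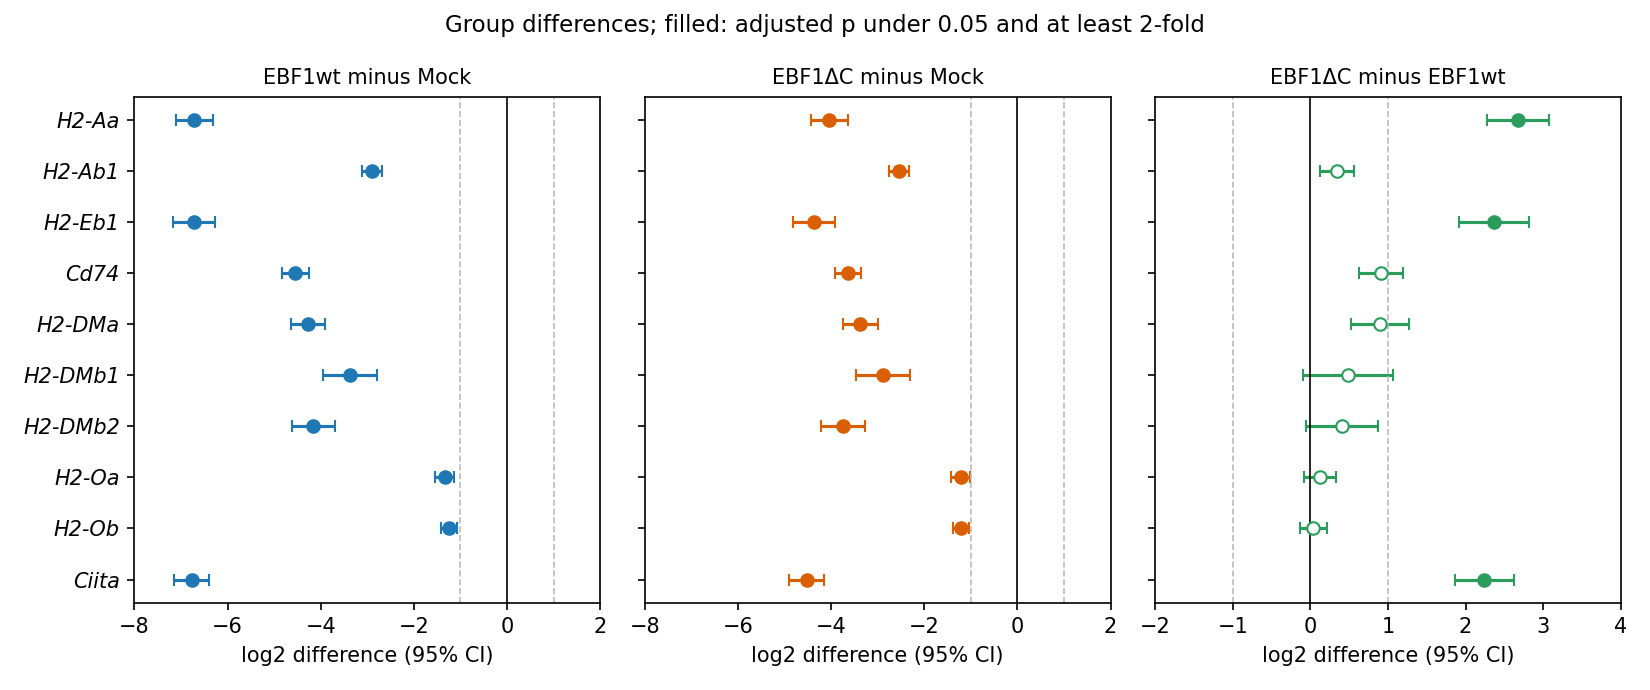
Points give the log2 difference between group means for each gene and bars its 95% confidence interval from the fit over 9 arrays; filled points are called and dashed lines mark 2-fold. Every gene is called lower against Mock, from -6.77 for Ciita to -1.24 for H2-Ob in EBF1wt, and only H2-Aa, H2-Eb1 and Ciita are called between the EBF1 groups.

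Seen as a share of the log2 distance between EBF1wt and Mock, EBF1ΔC cells stood 39.9% of the way for H2-Aa, 35.2% for H2-Eb1 and 33.1% for Ciita. The share was 21% for H2-DMa, 20% for Cd74, 14.4% for H2-DMb1, 11.8% for H2-Ab1, 9.9% for H2-DMb2, 9.1% for H2-Oa and 3.11% for H2-Ob. After the offset correction they were 32.3% for H2-Aa, 26.5% for H2-Eb1, 18% for Cd74, 17.7% for Ciita, 16.5% for H2-DMa and 3.89% to 12% for the others, so Ciita no longer stood beside H2-Aa and H2-Eb1. These shares are descriptions without a test. All 10 means were higher in EBF1ΔC than in EBF1wt, and for 6 genes (H2-Aa, H2-Ab1, H2-Eb1, H2-DMa, Cd74 and Ciita) the arrays did not overlap. The shares of all genes that do so were not counted, so these counts are descriptions only. Of 17 probes for the 10 genes, 16 passed the filter; all 16 were called lower in both comparisons with Mock (17.4% and 16.3% of all probes) and 4 were called higher in EBF1ΔC than in EBF1wt (1.14%). Those 4 were both H2-Aa probes, at 2.68 and 2.96, and the H2-Eb1 and Ciita probes.

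Between the outermost member probes of chromosome 17, 5 other genes were tested and none was called lower. Of all genes, 12.8% were called lower in EBF1wt and 11.8% in EBF1ΔC, and 5 genes are too few to set against these shares. The probe of H2-Eb2, called lower in both comparisons with Mock, lies outside this stretch (chr17:34470411-34470470, mm9). The member probes span chr17:34232033-34452511 (mm9), a stretch of 220 kb that also holds Brd2, a chromatin reader, the immunoproteasome subunits Psmb9 and Psmb8, and the peptide transporter subunits Tap1 and Tap2, which serve class I. None of these 5 was called in any comparison by limma's adjusted p and 2-fold. At an unadjusted p under 0.05 there were 1, 4 and 0 in EBF1wt against Mock, EBF1ΔC against Mock and EBF1ΔC against EBF1wt. The share of all genes at that unadjusted limit was not counted, here or for the lists below. Their differences ran from -0.10 (Psmb9) to 0.51 (Psmb8) in EBF1wt, from 0.09 (Psmb9) to 0.58 (Psmb8) in EBF1ΔC against Mock and from 0.07 to 0.20 between the EBF1 groups. Psmb8 passed the p-value in both comparisons with Mock (adjusted p = 0.000556 and 0.000296 in limma), and Tap1, Tap2 and Brd2 in that of EBF1ΔC (adjusted p = 0.00678, 0.0429 and 0.0434). Near Ciita on chromosome 16, Dexi, whose probe lies 4 kb from that of Ciita, was called lower, by 1.58 in EBF1wt and 1.37 in EBF1ΔC cells. Nubp1, on the other side, differed by -0.13 and -0.01.

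**Figure D4:**
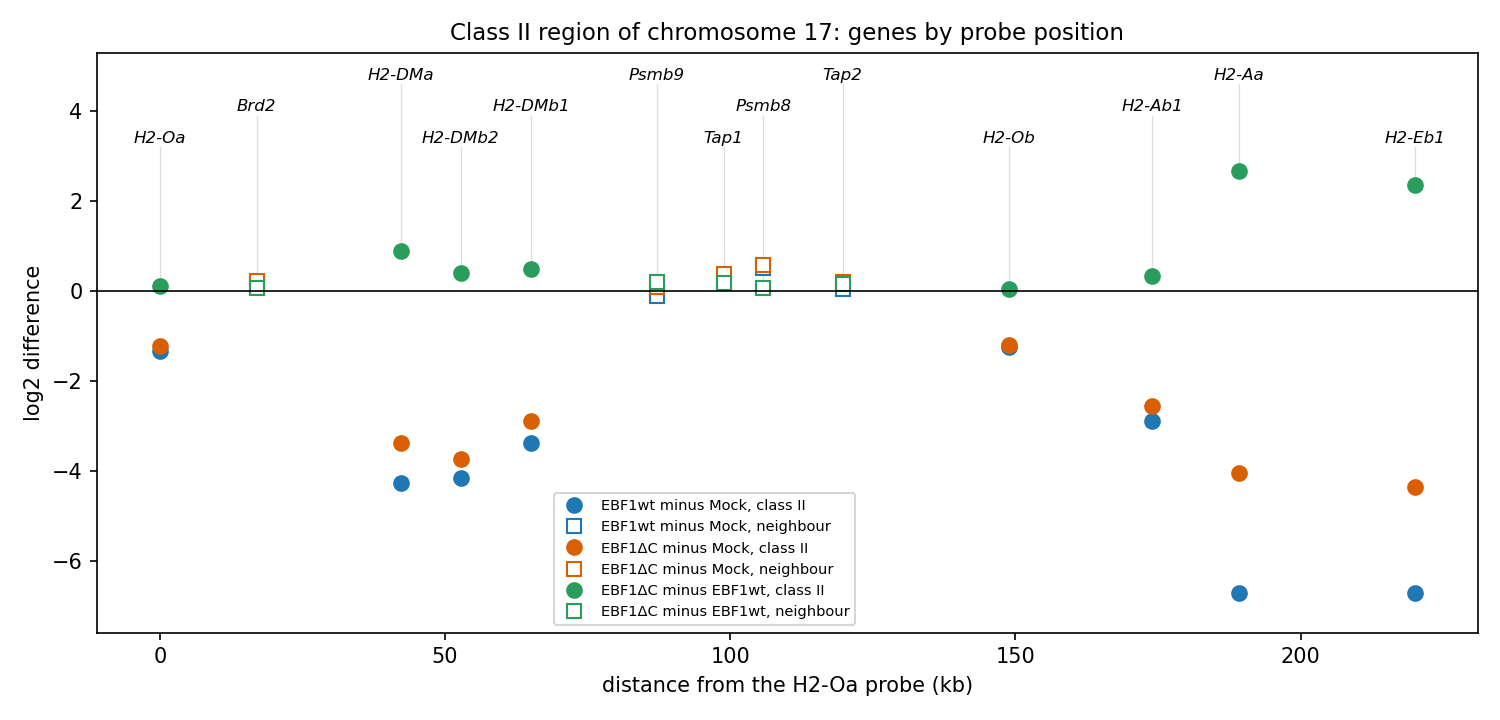
The log2 differences of all tested genes between the outermost class II probes of chromosome 17 are plotted against the distance of their probe from that of H2-Oa; filled circles are class II genes and open squares their neighbours. The 5 neighbours lie between -0.10 and 0.58, while the class II genes fall to -6.73 against Mock.

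None of the 7 factors of the X and Y boxes (Rfx5, Rfxap and Rfxank of the RFX complex, Nfya, Nfyb and Nfyc of NF-Y, and Creb1) was called in any comparison by limma's adjusted p and fold, and 4, 3 and 0 had an unadjusted p under 0.05. Of all genes, 12.8% were called lower and 6.62% higher in EBF1wt against Mock, and 11.8% and 6.26% in EBF1ΔC. These 7 factors are too few to set against such shares. Their median differences were 0.20, 0.16 and -0.04 in the 3 comparisons, taken in the same order, against 0.12, 0.10 and -0.01 for all genes. Nfyc came nearest, at 0.85 in EBF1wt and 0.94 in EBF1ΔC against Mock, past the p-value (adjusted p = 0.000107 and 6.6e-05 in limma) and short of 2-fold; under median scaling it was called, at 1.56 and 1.49. Rfx5 differed by 0.02, -0.03 and -0.05.

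Among 19 known or proposed regulators of Ciita, 18 were tested; Prdm1, a repressor of Ciita in plasma cells, was not. In EBF1wt against Mock, Ebf1 itself (1.61), Foxo1 (1.37), a factor of early B cells, and Irf4 (1.12) were called higher and Bcl6, a repressor of germinal centre B cells, lower (-3.36). In EBF1ΔC against Mock, Ebf1 (2.35) and Foxo1 (1.42) were called higher and Bcl6 lower (-2.45). The activators Spi1 (PU.1) and Irf8 were lower by 0.52 and 0.53 in EBF1wt and by 0.53 and 0.55 in EBF1ΔC cells, short of 2-fold. Pax5, a factor of B cell identity, differed from Mock by 0.25 and 0.08. None of the 18 was called between the EBF1 groups, where 5 had an unadjusted p under 0.05. The list medians were -0.14, 0.08 and -0.02.

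The same 5 passed limma's adjusted p without the fold between the EBF1 groups, and 4 of them are described. Irf4 was lower in EBF1ΔC by 0.95 (adjusted p = 0.00945 in limma), with 1.71, 2.22 and 1.95 in EBF1wt and 1.26, 1.03 and 0.74 in EBF1ΔC cells. Bcl6 was higher by 0.91 (0.0497), Ebf1 by 0.74 (0.0193) and Irf1 by 0.73 (0.00662). Irf1 read 3.20, 2.93 and 3.27 in EBF1wt and 3.85, 3.72 and 4.02 in EBF1ΔC cells, beside 3.77 to 3.81 in Mock. The Ebf1 value is that of its brightest probe; the mean of its kept probes differed by 0.24 (adjusted p = 0.598 in limma), and the part of Ebf1 in the class II differences was not tested.

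The interferon gamma receptor path, which drives Ciita in many cell types, had 7 of 8 genes tested, Ifng being the exception. Socs1, an inhibitor of the path, was called lower in EBF1wt (-1.86) and EBF1ΔC (-1.63), and Ifngr1, a receptor chain, in EBF1ΔC (-1.05); its -0.99 in EBF1wt fell just short. Without the third Mock array the Ifngr1 difference in EBF1ΔC was -0.99 and was not called. Jak1, Jak2 and Ifngr2 were not called in any comparison. Between the EBF1 groups limma called none of the 7, and 3 had an unadjusted p under 0.05; the medians were -0.46, 0.05 and 0.20.

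Of 17 genes for peptide loading and class II trafficking, 16 were tested, Ctsl being the exception. In EBF1wt against Mock 5 were called lower and none higher: the cathepsins Ctsh (-3.80) and Ctsz (-1.49), the ubiquitin ligases Marchf1 (-3.50) and Marchf8 (-1.74), of which Marchf1 removes class II from the surface, and the tetraspanin Cd63 (-1.02). In EBF1ΔC against Mock 4 were called lower, Marchf1 (-3.32), Ctsh (-3.28), Marchf8 (-3.22) and Ctsz (-1.49), and Cd82 was called higher (1.06), a call lost after the offset correction, under quantile normalization and in the authors' values. Ctsh was well above background on 2 of 3 EBF1wt arrays. After the offset correction its differences were -1.65 and -1.55, and those of Marchf8 -1.28 and -2.06, all still called. Ctss, the protease that trims the invariant chain, differed by -0.70 and -0.80. Ifi30, a thiol reductase of the endosome, was called lower in EBF1ΔC than in EBF1wt (-1.24, adjusted p = 0.0124 in limma), a call lost with slide as a block, when only these 2 groups were fitted and at an adjusted p limit of 0.01. The list medians were -0.25, -0.42 and 0.07.

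H2-Eb2, a gene next to H2-Eb1 with a related beta chain sequence, was lower against Mock as well but ordered the EBF1 groups the other way. It read -1.27, -1.28 and -1.15 in Mock, -2.55, -3.47 and -2.82 in EBF1wt and -3.84, -4.04 and -4.15 in EBF1ΔC cells. It was lower by 1.71 and 2.78 against Mock, and by 1.06 in EBF1ΔC against EBF1wt (adjusted p = 0.0187 in limma). That last call was lost under several alternatives, with values of -0.46 after the offset correction, -0.43 in the authors' deposited values, -0.87 without the first EBF1wt array and -0.99 without the third EBF1ΔC array.

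None of 13 genes of class I presentation, among them the heavy chains H2-K1 and H2-D1 and the light chain B2m, was called in any comparison by limma. Of all genes, 12.8% were called lower and 6.62% higher in EBF1wt against Mock, and 11.8% and 6.26% in EBF1ΔC. The 13 class I genes are few to set against such shares. At an unadjusted p under 0.05 there were 7, 9 and 2, and the medians were 0.02, 0.15 and 0.13. Nlrc5, the class I counterpart of CIITA, differed by -0.72 in both comparisons with Mock and by 0.00 between the EBF1 groups. Psmb10 differed by 0.57 and 0.68 against Mock.

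Of 9 costimulatory and surface genes 6 were tested; Cd80, Cd86 and Cd83 were not. Cd40, the receptor for T cell help, was called lower in EBF1wt (-3.37) and EBF1ΔC (-3.27) cells; after the offset correction the values were -1.27 and -1.28, still called. Icosl was called lower in EBF1wt (-1.25) and called higher in EBF1ΔC than in EBF1wt (1.38, adjusted p = 0.0338 in limma). Without the second EBF1wt array both Icosl calls were lost, at -0.83 and 0.95. The call between the EBF1 groups was lost when any of 7 of the 9 arrays was left out, every one except EBF1wt arrays 1 and 3, and also with no filter on dim probes (adjusted p = 0.0994 in limma), with slide as a fixed block (0.176) and when only these 2 groups were fitted (0.101). Among 12 coactivators and chromatin partners of CIITA, the coactivator Ncoa3 was called lower in both groups (-1.16 and -1.21), Hdac2 higher in EBF1wt (1.07) and Ctcf higher in EBF1ΔC (1.09). Crebbp, the acetyltransferase CBP, differed by 0.77 and 0.80. None was called by limma between the EBF1 groups, where 1 had an unadjusted p under 0.05. The medians were -0.23, 0.05 and 0.01 for the surface genes and 0.25, 0.39 and 0.06 for the partners of CIITA. The calls against Mock of Irf4, Hdac2, H2-Eb2 and Icosl in EBF1wt (0.92, 0.69, -0.83 and -0.78) and of Ctcf in EBF1ΔC (0.81) were lost after the offset correction, and that of Irf4 also without the second EBF1wt array (0.99) and that of Hdac2 without the second Mock array (0.94). Under median scaling Dexi, Ctsz and Ncoa3 in both groups, Icosl in EBF1wt and Ifngr1 in EBF1ΔC cells fell short of 2-fold, with values between -0.95 and -0.46.

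**Figure D5:**
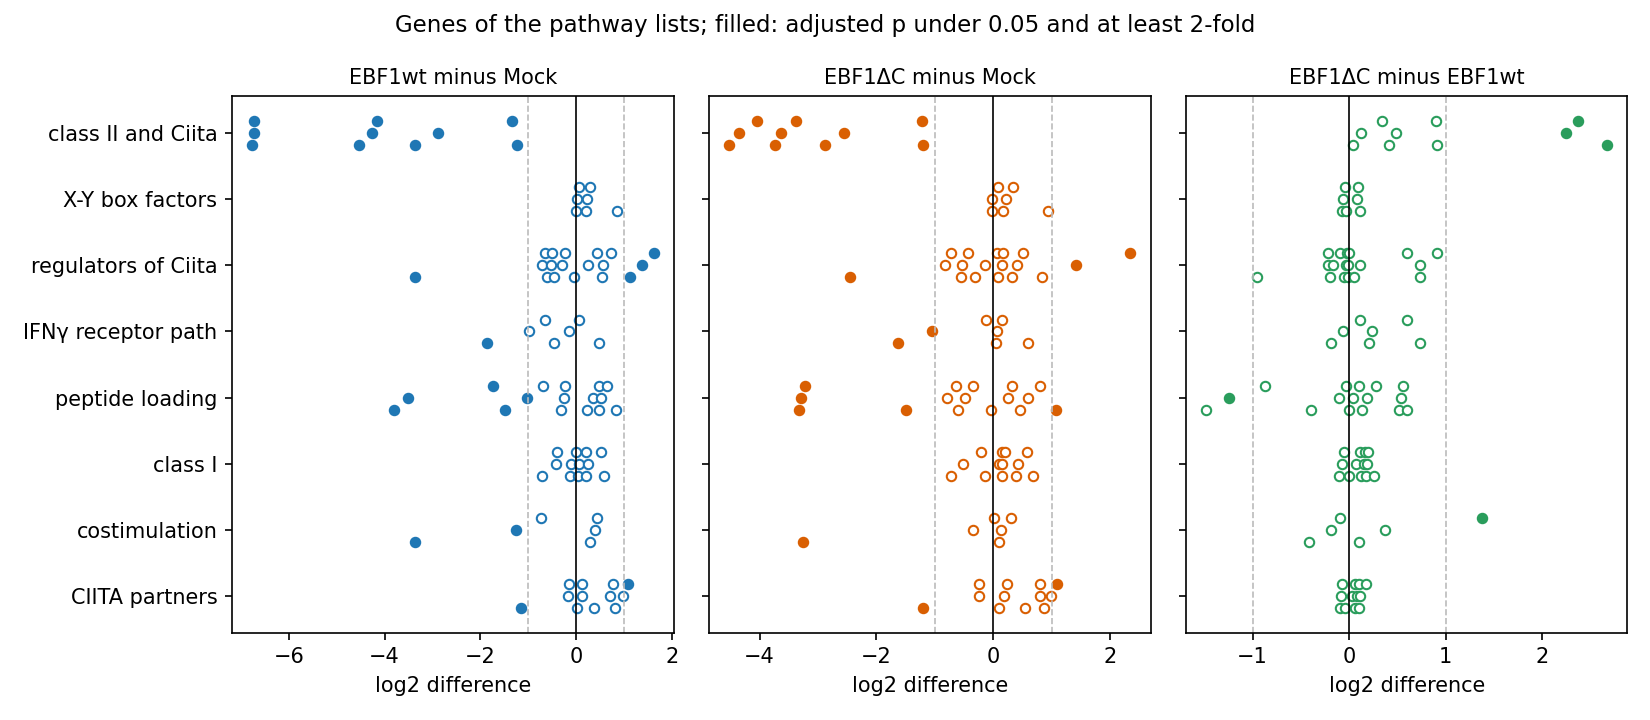
Each point is a tested gene of a list, placed by its log2 difference in each of the 3 comparisons (rows offset for legibility); filled points are called at an adjusted p under 0.05 and at least 2-fold. The class II row lies below -1 in both comparisons with Mock. The rows of X and Y box factors and class I hold no called gene, and most genes of the array were not called either.

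Class II genes are also expressed by other cell types, so their markers were read on the same arrays. Of 10 dendritic cell markers, Clec9a, Siglech, Cd209a and Clec10a were well above background on no array, and the summed signal, in units of the 75th percentile, was 1.01 to 1.1 in Mock, 0.129 to 0.222 in EBF1wt and 0.200 to 0.227 in EBF1ΔC cells. Itgax (CD11c) was well above background on the Mock arrays alone, at least 31.5-fold above EBF1wt and 35.9-fold above EBF1ΔC. Of 10 macrophage and monocyte markers, Adgre1 and Mertk were well above background on no array. The sum was 40.9 to 41.4 in Mock, 2.20 to 6.32 in EBF1wt and 11.1 to 17.9 in EBF1ΔC cells. Fcgr1 was lower by 6.37 and 5.68 and Ly6c2 by 3.79 and 3.72, and Lyz2 was higher by 2.06 and 5.16. The brightest of these markers was Ly6c2 in Mock (mean 5.06) and Lyz2 in EBF1ΔC cells (3.59), where Ly6c2 read 1.33. The EBF1ΔC sum thus rests largely on Lyz2, a gene higher there than in Mock. Among 6 mature B markers 4 were called lower in each comparison with Mock (Fcer2a, Cd22 and Cr2 among them), and the sum was 39.0 to 44.4 in Mock, 8.72 to 13.9 in EBF1wt and 9.75 to 12.5 in EBF1ΔC cells. Fcer2a (CD23) was at least 54.4-fold lower in EBF1wt than in Mock. The part of these genes, and of the cells they mark, in the class II differences was not tested. Pro-B marker sums went the other way, from 277 to 291 in Mock to between 874 and 943.8 in EBF1wt and between 895 and 924.9 in EBF1ΔC cells. The brightest of them in the EBF1 groups was Vpreb1 (means 8.62 and 8.71, beside 5.12 in Mock), and the list includes Ebf1 itself. Of the 11 markers, 7 were called higher in EBF1wt (6.62% of all genes) and 5 in EBF1ΔC (6.26%), and none lower. Pax5 was not called, nor was Dntt, lower by 0.62 in EBF1wt. Of 7 T cell markers, Cd4, Cd8a and Thy1 were well above background on no array, and the sums were 1.42 to 1.53, 0.850 to 0.993 and 1.37 to 1.60. These sums rest largely on Lat (means 0.21, -0.28 and 0.42), which was not called. Cd3d was called lower in both comparisons with Mock, at least 6.87-fold in EBF1wt, while Cd3e was called in neither. Cd3g was well above background on 2 Mock arrays and on no EBF1 array.

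The pattern of Ciita over the 9 arrays was set beside that of the 10687 genes well above background on all of them. These correlations describe 3 groups of arrays with Mock far from the rest, and the arrays of a group share its mean. Among the class II genes Pearson's r with Ciita ran from 0.949 (H2-Ob) to 0.998 (H2-Eb1). The share of all genes that reach such values was not counted, so this range is a description only. The 5 most alike of all other genes were Btg1, an antiproliferative gene (r = 0.997), Il4ra, the interleukin 4 receptor (0.997), Ptprc, which encodes CD45 (0.994), Mylip (0.993) and Jakmip1 (0.993). Il4ra read 2.36 to 2.45 in Mock, -2.30 to -2.10 in EBF1wt and -0.91 to -0.69 in EBF1ΔC cells, and its excess of 1.40 in EBF1ΔC over EBF1wt was called (adjusted p = 9.73e-05 in limma). Because Il4ra was picked for its likeness to Ciita on these same arrays, this call is no separate result. The most opposed were 2900026A02Rik (-0.997), Lias (-0.996), Arhgap31 (-0.995), Coa6 (-0.994) and Cmss1 (-0.994).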

How the data were processed

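Total RNA of 9 samples was labelled with Cy3 and hybridised to 1-colour Agilent 4x44K mouse arrays. The values used are the processed signal intensity of each spot, which the authors deposited after background subtraction and spatial detrending by Agilent Feature Extraction, version 10.5.1.1 per the file headers and 9.1 per the submitters' processing notes. The authors also deposited log2 values of each probe, with the normalization not stated; they served as an alternative. Probe positions are on mm9 per the file headers.

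Outlier and control spots were left out, spots of a probe were averaged, and log2 intensities were centred on the 75th percentile of each array. Of 41174 probes, 22357 were kept because every array of some group showed them well above background, and the brightest probe stood for its gene. Names came from RefSeq accessions, symbols or synonyms, or from the files. A model with a mean for each group was fitted to all 9 arrays with limma 3.58.1, statmod 1.5.0 and the data.table package, version 1.17.8, under R 4.3.3, with moderated two-sided tests, 6 residual degrees of freedom and Benjamini-Hochberg adjustment over 12029 genes. Tested on simulated data for EBF1wt against Mock, it recovered 92% of 200 genes changed by 2 on the log2 scale, with 2 other genes called.

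The members, gene lists, marker lists and tests were chosen with earlier results of these data known. Named are the members, Ebf1, the X and Y box factors, up to 4 called genes per list and comparison (otherwise up to 2), the 5 genes most like and most unlike Ciita, and tested neighbours of the member probes (for Ciita within 200 kb). Spi1, Irf8, Pax5, Ctss, Cd63, Cd82, Crebbp, Jak1, Jak2, Ifngr2, and Bcl6 between the EBF1 groups, and markers beyond this rule, were named after their values were seen. Some list genes are counted but not reported here by name. Same-numbered samples did not deviate together (correlations of -0.18 to 0.12), so numbers were not taken as pairs. The number of arrays limits the precision.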

Additional observations from a re-analysis of the deposited data

How the results depend on the processing

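The counts of class II genes called lower against Mock were 10 under every alternative run except scaling to the array median, where both were 8 because H2-Oa and H2-Ob fell short of 2-fold. The count called higher in EBF1ΔC than in EBF1wt was 3, ran from 3 to 4 when each array was left out in turn, was 2 after normexp correction with quantile normalization and in the authors' values, and was 5 with no fold limit, which adds Cd74 and H2-DMa. With the replicate number as a block the counts were 10, 10 and 3; the numbers do not pair the samples. Slide as a fixed block could be fitted only between the EBF1 groups, and it left 3 calls, as did slide as a random block (consensus correlation 0.0226). H2-Aa kept an excess of at least 1.84 and H2-Eb1 of at least 1.48 in EBF1ΔC over EBF1wt under all alternatives, while Ciita ranged from 0.75 to 2.37. The mean of the kept Ebf1 probes reversed the difference from Mock to -1.0 in EBF1wt and -0.76 in EBF1ΔC cells; the cause was not tested. A further 68 sign changes concerned differences called under neither setting, among them H2-Oa (-0.04) and H2-Ob (-0.12) between the EBF1 groups under median scaling. Scaling moved the share of called genes that were higher: 34.1%, 34.6% and 51.4% in the 3 comparisons, 85.3%, 78.4% and 38.7% under median scaling and 45.3%, 44.4% and 46.7% under quantile normalization. Called against Mock under median scaling were also more list genes: 6 and 3 of the peptide loading list higher in place of 0 and 1, 7 and 4 regulators of Ciita in place of 3 and 2, and 6 and 6 partners of CIITA in place of 1 and 1. Signals near the offset of 50 units, as for Ciita in EBF1wt cells, limit the size of the folds given.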
